A study of Mus musculus with 6 samples.

Results

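The nuclear-encoded subunits of the mitochondrial respiratory chain and ATP synthase were followed in control kidney tubular cells and in cells labelled ELF3 knockout. They were taken from the gene tables by symbol: Nduf genes with the letter a, b, c, s or v and a number, Ndufab1, Sdha to Sdhd, genes starting with Uqcr, Cyc1, Cox4 to Cox8 genes and genes starting with Atp5. This gave 87 of the 55487 rows, with 37 rows in complex I, 4 in complex II, 9 in complex III, 19 in complex IV and 18 in complex V. Atp5o stood under 2 identifiers, so the 87 rows carry 86 symbols. A filter on low counts kept 79 rows. Of the 8 rows below it, 6 had 0 counts in each of the 6 libraries.

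Primary epithelial cells grown from mouse kidney tubules were sequenced as bulk RNA in 3 control and 3 knockout libraries. The controls are labelled wild type and had received a control adenovirus. The knockout cells are labelled ELF3 knockout and had received an adenovirus that carries Cre recombinase, which deletes a gene flanked by its target sites. All 6 libraries share the cytokines TNFα and IFNγ, given after the virus, and carry the label of 1 batch. There was no group without cytokines and none without virus. The ages of the animals, the doses and times of the cytokines, the allele that Cre acts on and whether replicates were separate cultures or animals were no part of the labels used here, so p-values measure the spread between these libraries, which may be technical. The libraries held between 8961779 and 10774195 estimated counts, and 3 counts corresponded to 0.282 to 0.337 CPM (counts scaled by library size). Elf3 (ENSMUSG00000003051), the targeted gene, stood at 18.9, 24.3 and 22.8 CPM in the controls and at 4.26, 3.01 and 2.03 CPM in the knockout. The count covers the whole gene, and a two-sided exact permutation test of these 3 against 3 values gave p = 0.1, the smallest that this design allows. Markers of tubular epithelium went both ways: of 8 tested, 4 rose, led by the keratin genes Krt18 (0.71 on the log2 scale) and Krt8 (0.45), and 2 fell, Pax8 (-0.46) and Cdh16 (-0.29). Slc34a1, the last of the 9 listed, had 1 count over all libraries. The sum of the 9, most of it from both keratins, was 4380 to 4550 CPM in the controls and 5940 to 6070 CPM in the knockout. Of 6 leukocyte markers 2 were at 0, the T cell gene Cd3e among them, and the sum lay between 30.6 and 41.2 CPM in all libraries. For 4 endothelial markers the sum was 1.13 to 1.88 CPM against 7.41 to 9.85 CPM, nearly all of it Kdr (1.45 ± 0.447 and 8.07 ± 1.32 CPM), while Pecam1, Cdh5 and Tek were too low to test, with 6, 10 and 4 counts over all libraries. For 6 fibroblast markers the sum was 83.6 to 89.5 CPM against 85.3 to 101 CPM, most of it Col1a1. They too went both ways: of 5 tested, Pdgfra (0.83 on the log2 scale) and Col1a1 (0.20) rose, Col1a2 (-0.32) fell and 2 did not pass. Among all tested genes 18.3% rose and 18.3% fell. Fewer cells of a type and less RNA per cell cannot be told apart in such bulk samples.

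Respiratory chain complexes I to IV pass electrons from NADH and succinate to oxygen and, except for complex II, pump protons across the inner mitochondrial membrane, and complex V uses the proton gradient to make ATP. Most subunits are encoded in the nucleus and imported, while a small core set is encoded by mitochondrial DNA, so that each complex other than complex II is assembled from the products of both genomes. Tubular cells, those of the proximal tubule above all, depend on oxidative phosphorylation for the transport of solutes, and many nuclear respiratory genes are known targets of the transcription factors NRF1 and GABP. GABP binds DNA through an ETS domain, the domain that ELF3 also carries.

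Most respiratory chain genes differed between the groups by less than 1.25-fold, and those that passed the test moved in both directions. Of the 79 tested, 7 rose in the knockout, 15 fell and 57 did not pass at a threshold of 0.05 on the adjusted p (quasi-likelihood test of edgeR, Benjamini-Hochberg adjustment over all 13755 tested genes). That is 27.8% of the subunits, beside 36.6% of all tested genes (18.3% higher and 18.3% lower). The median log2 fold change, knockout minus control, was -0.01 over the subunits and -0.01 over all genes. The median size of the change was 0.108 on the log2 scale over the subunits and 0.203 over all genes, with median standard errors of 0.071 and 0.0987. In 72 of the 79 the fold change lay within 1.25-fold either way, and 2 went beyond 1.5-fold, Cox6b2 upward and Atp5e downward. Called changes of 1.5-fold or more made up 12.7% of all tested genes, and of 2-fold or more 6.04%. The groups did not overlap for 14 subunits that were higher and 16 that were lower in the knockout, beside 23.0% and 23.6% of all tested genes. The split between directions moved with the processing: scaling by library totals gave 4 higher and 18 lower (16.4% and 20.4% of all genes), a correction for GC content and transcript length added after seeing the data gave 19 and 14 (21.1% and 18.6% of all genes), and the deposited TPM values, on the log2(TPM + 1) scale with limma, gave 3 and 8 (9.21% and 8.37% of all genes).

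**Figure D1:**
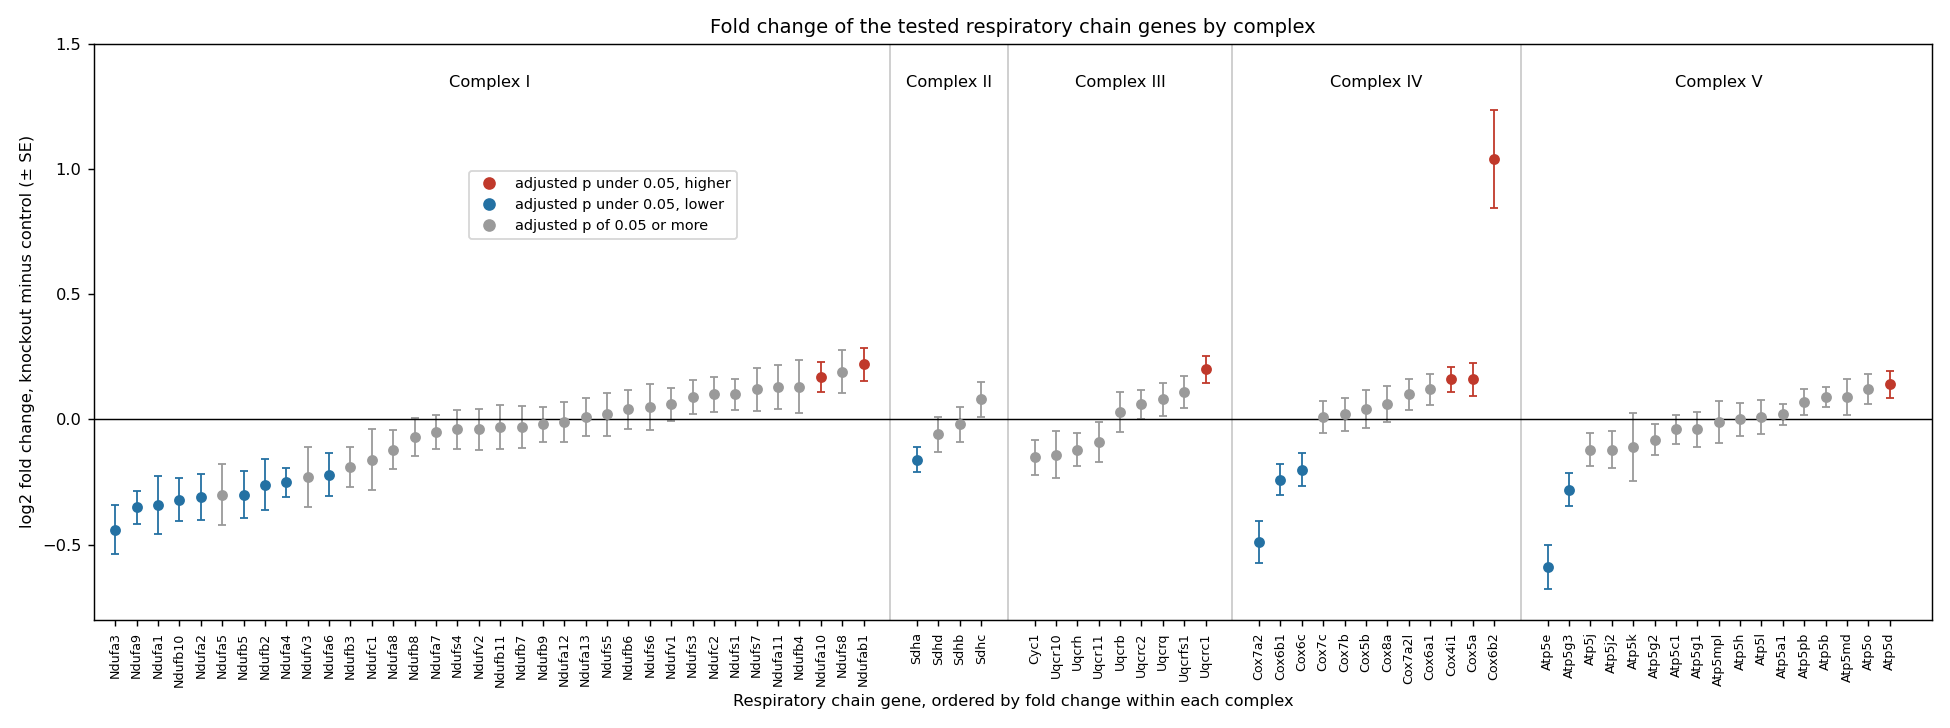
The log2 fold change (knockout minus control) of 78 of the 79 tested genes is plotted on the vertical axis with its standard error, in order of size within complexes I to V; colours mark the 7 genes called higher, the 15 called lower and 56 that were not called at an adjusted p of 0.05. Most points lie close to 0, Cox6b2 stands at 1.04, and Atp5e at -0.59 has the largest fall.

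The subunits also varied together between libraries of the same group. Control 3 was the highest control for 51 of the 79 subunits (64.6%) and for 35.4% of all tested genes. Knockout 1 was the highest knockout library for 57 subunits (72.2%, against 36.4% of all genes), and knockout 2 was the lowest for 55 (69.6%, against 32.3%). Control 3 and knockout 1 were also the 2 libraries with the fewest counts, 8979668 and 8961779, and the part of depth in this was not tested. Counts of calls changed when any 1 library was left out, not only these. Without control 3 only 8 subunits were called lower and 7 higher (15.7% of all genes were then lower and 16.6% higher), without knockout 1 there were 20 lower and 5 higher (17.3% and 18.4% of all genes), and without control 1 or control 2 the number called higher was 4 or 3 (15.5% and 15.7% of all genes).

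Summed over all rows, the subunits reached 26333, 26510 and 27510 TPM (a level scaled by library size and transcript length) in the controls and 27341, 24518 and 26229 TPM in the knockout. The groups overlapped, and the knockout mean of 26029 ± 1422 TPM was 0.972 of the control mean of 26784 ± 635 TPM (SD, n = 3 each). By complex, the ratio of summed TPM was 0.95 for complex I, 1.01 for complex II, 0.978 for complex III, 0.999 for complex IV and 0.965 for complex V. Among single genes, Atp5b, the catalytic beta subunit of ATP synthase, had the highest mean level at 1590 TPM over the 6 libraries. Atp5md followed at 1430 TPM, and the cytochrome c oxidase genes Cox7c and Cox4i1 at 1190 and 1100 TPM. In CPM, which are not scaled by length, Atp5md stood at 73.2 ± 7.41 in the controls and 78.2 ± 5.34 in the knockout. That is below Cox4i1 at 294 ± 6.98 and 329 ± 21.8 CPM. The rank of Atp5md thus rests on the length scaling, on which the other ranks and the sums of TPM also depend. The highest member of complex I was Ndufa4 at 618 TPM, that of complex II Sdhd at 143 TPM and that of complex III Uqcrq at 487 TPM, with Uqcr11 and Uqcr10 at 482 and 481 TPM. The 3 complex III genes differed from each other by less than their spread between libraries. Complex II genes were at 112 to 143 TPM, below the median of 158 TPM in complex I.

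**Figure D2:**
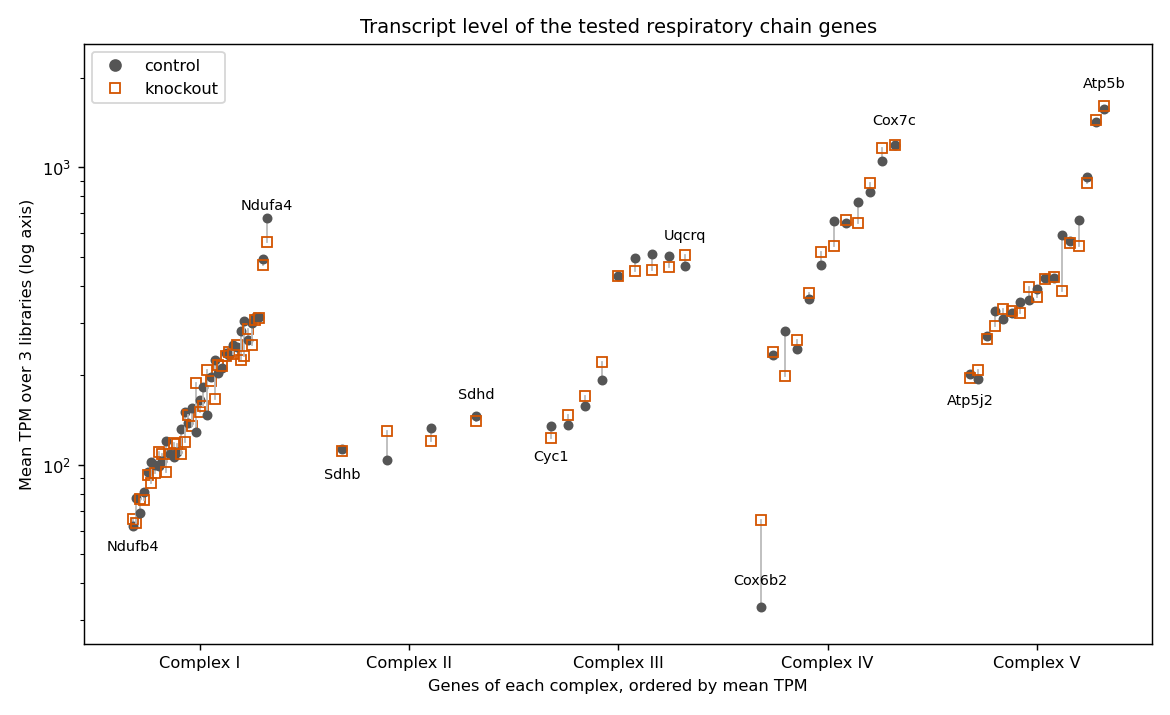
Mean TPM over 3 libraries (vertical log axis) is shown for each tested gene, grouped by complex and ordered by level, with filled circles for control and open squares for knockout joined by a line. Levels run from Cox6b2, the lowest, at 49.2 TPM over all libraries to Atp5b at 1590 TPM, and most pairs of symbols lie on top of each other.

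Promoter sequences are shown for both called-lower genes whose window holds the letters CCGGAAG on either strand, and for a pair of called genes without them. They were chosen after their values and letters were seen. Cox7a2 and Ndufa3 fell more than Cox6b1 and Ndufa9, hold no match and are not shown. The sequences cover the 120 bases before the RefSeq start site, on build GRCm38.p6, written 5′ to 3′ on the strand of the gene. Capitals mark CCGGAAG, a form of many ETS and GABP sites, searched on both strands, which reads CTTCCGG on the other strand. Other forms with the shorter GGAA were not searched, and the Ndufa9 window holds GGAA on the other strand. Atp5e, with the largest fall, lies on the minus strand with a window of chr2:174464102-174464221. Cox6b1, the other called-lower gene with a match, has chr7:30626115-30626234, also on the minus strand. Cox6b2, with the largest rise, has chr7:4753095-4753214 and Ndufa9, the complex I gene with the smallest p, has chr6:126849145-126849264, both on the minus strand.
Atp5e: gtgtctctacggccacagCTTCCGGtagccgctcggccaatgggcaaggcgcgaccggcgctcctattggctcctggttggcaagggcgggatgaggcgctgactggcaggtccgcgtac
Cox6b1: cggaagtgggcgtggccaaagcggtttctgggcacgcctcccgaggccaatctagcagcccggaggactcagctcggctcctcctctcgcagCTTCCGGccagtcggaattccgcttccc
Cox6b2: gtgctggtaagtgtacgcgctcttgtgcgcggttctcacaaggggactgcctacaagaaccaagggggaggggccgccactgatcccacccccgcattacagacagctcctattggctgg
Ndufa9: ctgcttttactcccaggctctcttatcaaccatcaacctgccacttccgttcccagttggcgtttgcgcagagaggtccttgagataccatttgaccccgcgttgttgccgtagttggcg
The match starts at position -102 from the start site in Atp5e and at -28 in Cox6b1, and the windows of Cox6b2 and Ndufa9 hold none. In the full windows of 250 bases before to 50 after the start, 17 of the 69 subunit genes with a RefSeq entry (24.6%) held the letters. Counted by window, 8.86% of all 32851 windows of this length held the letters. The share of genes was 25.8% among tested subunits with an entry and 20.1% among all tested genes with an entry. Among all 27025 genes with an entry it was 9.93%. Among tested subunits it was 2 of 13 called lower (15.4%), 0 of 6 called higher and 15 of 47 not called (31.9%). By complex, 4 of 33 genes of complex I held a match (12.1%), 2 of 3 of complex II, 2 of 5 of complex III, 3 of 10 of complex IV and 6 of 15 of complex V. A match is a description of the letters and not a binding site.

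Complex I, the NADH dehydrogenase, had 9 of its 37 genes lower, 2 higher and 26 not passing, with a median log2 fold change of -0.03. Beside these counts and those of the other complexes stand 18.3% of all tested genes called lower and 18.3% called higher. The 9 that fell were Ndufa9, Ndufa3, Ndufa4, Ndufb10, Ndufa2, Ndufb5, Ndufa1, Ndufa6 and Ndufb2. All are counted as accessory subunits, which surround the catalytic core, with Ndufa4 placed by its symbol. The 2 that rose, Ndufab1 and Ndufa10, are accessory as well. None of the 7 nuclear core genes passed. Of the 37 genes 30 are accessory, and 36.7% of these were called, beside 36.6% of all tested genes.

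Ndufa9 (ENSMUSG00000000399, chromosome 6, 126821721 to 126849136, minus strand, mm10) encodes an accessory subunit near the quinone-binding site. Its level was 80.9, 87.2 and 87.1 CPM in the controls and 67.8, 63.4 and 69.2 CPM in the knockout. Every knockout library was below every control, and the mean fell from 85.1 ± 3.59 to 66.8 ± 3.06 CPM (log2 fold change -0.35, SE 0.066, adjusted p = 8.55e-05). Ndufa3, a small subunit of the membrane arm, had 27.1, 31.7 and 30.3 CPM in the controls and 21.2, 22.1 and 22.1 CPM in the knockout. Again the groups were apart, with a log2 fold change of -0.44 (SE 0.0987, adjusted p = 0.000611), the largest fall of the complex. Ndufb10, another membrane arm subunit, had 37.6, 42.5 and 43.0 CPM against 35.1, 30.4 and 32.8 CPM. It fell by 0.32 on the log2 scale (adjusted p = 0.00383) without overlap.

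Ndufa4 was long counted as a complex I subunit and is now assigned to complex IV. It stood at 129, 133 and 125 CPM in the controls and at 110, 104 and 112 CPM in the knockout. The groups did not overlap and the log2 fold change was -0.25 (SE 0.0579, adjusted p = 0.000763), which shrank to -0.14 with the correction for GC content and length. Counted with complex IV, it would leave complex I with 8 lower and 2 higher of 36, and give complex IV 4 lower and 3 higher of 13.

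The other genes of complex I that fell did so by 0.22 to 0.34 on the log2 scale. Ndufa2, a matrix arm subunit with a thioredoxin-like fold, had 47.6, 46.9 and 54.7 CPM in the controls and 43.3, 33.5 and 43.7 CPM in the knockout (log2 fold change -0.31, adjusted p = 0.00801). Ndufb5 of the membrane arm fell from 35.7 ± 2.89 to 28.8 ± 2.73 CPM (adjusted p = 0.0109). In both genes the groups were apart. Ndufa1, an X-linked subunit needed for assembly, had 20.3, 28.5 and 27.7 CPM in the controls and 20.9, 20 and 19.4 CPM in the knockout (adjusted p = 0.0215). Control 1 lay within the knockout range, so the groups overlapped. They overlapped too for Ndufa6 (55.7 ± 4.30 and 48.0 ± 6.59 CPM, adjusted p = 0.0442), which encodes an LYR-motif protein that binds the acyl carrier protein. Ndufb2, with 28.8 ± 1.61 and 24.1 ± 2.69 CPM (adjusted p = 0.0453), is named because it completes the count and lies outside the naming rule.

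Ndufab1 encodes that acyl carrier protein, which also serves mitochondrial fatty acid synthesis. Its level was 71.3, 74.8 and 71.0 CPM in the controls and 87.3, 87.9 and 78.6 CPM in the knockout, so each knockout library was above each control (log2 fold change 0.22, SE 0.066, adjusted p = 0.00789). Ndufa10, a subunit with a fold like that of nucleoside kinases, had 101, 94.4 and 104 CPM against 114, 115 and 109 CPM. It rose by 0.17 on the log2 scale (adjusted p = 0.0257), also without overlap.

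Leaving out 1 library ended several of these calls. For Ndufa10 the adjusted p was 0.0514 without control 1, 0.153 without control 2 and 0.0759 without knockout 2. Ndufa2 lost its call without control 3 (0.0756) or knockout 2 (0.124), and Ndufb5 without control 3 (0.0802) or knockout 1 (0.0569). Ndufa1 lost it without control 2 (0.164), control 3 (0.112) or knockout 3 (0.0722), and Ndufa6 without control 1 (0.0648), control 3 (0.23), knockout 2 (0.119) or knockout 3 (0.292). The call of Ndufb2 held without knockout 1 and was lost without any other library (0.0649 to 0.269).

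The 7 nuclear core genes carry the flavin and the iron-sulphur clusters of the matrix arm. Among them are Ndufv1 and Ndufv2 at the NADH site and Ndufs1, Ndufs8 and Ndufs7 along the cluster chain. Their log2 fold changes ran from -0.04 for Ndufv2 to 0.19 for Ndufs8 (adjusted p of 0.76 and 0.0904). Ndufs8 had 31.3, 32.7 and 36.6 CPM in the controls and 38.7, 37.5 and 38.0 CPM in the knockout, and Ndufs1 had 95.6, 89.0 and 92.4 CPM against 98.0, 99.2 and 99.3 CPM (adjusted p = 0.22). For these genes and Ndufs7 the knockout libraries lay above the controls without overlap, though none passed the test. The sum of the 30 accessory genes was 6263, 6266 and 6512 TPM in the controls and 6211, 5668 and 5930 TPM in the knockout, so it was lower in the knockout without overlap. This sum includes Ndufa4, at 684, 696 and 651 TPM in the controls and 554, 536 and 590 TPM in the knockout. With Ndufa4 left out the groups overlap, as the sum in knockout 1 is then above that in control 1. The ratio of knockout to control was 0.935 for the 30 genes, and their median log2 fold change was -0.06. The division into core and accessory genes was made after the values were seen and was not tested, and 46.7% of all tested genes had groups that did not overlap.

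**Figure D3:**
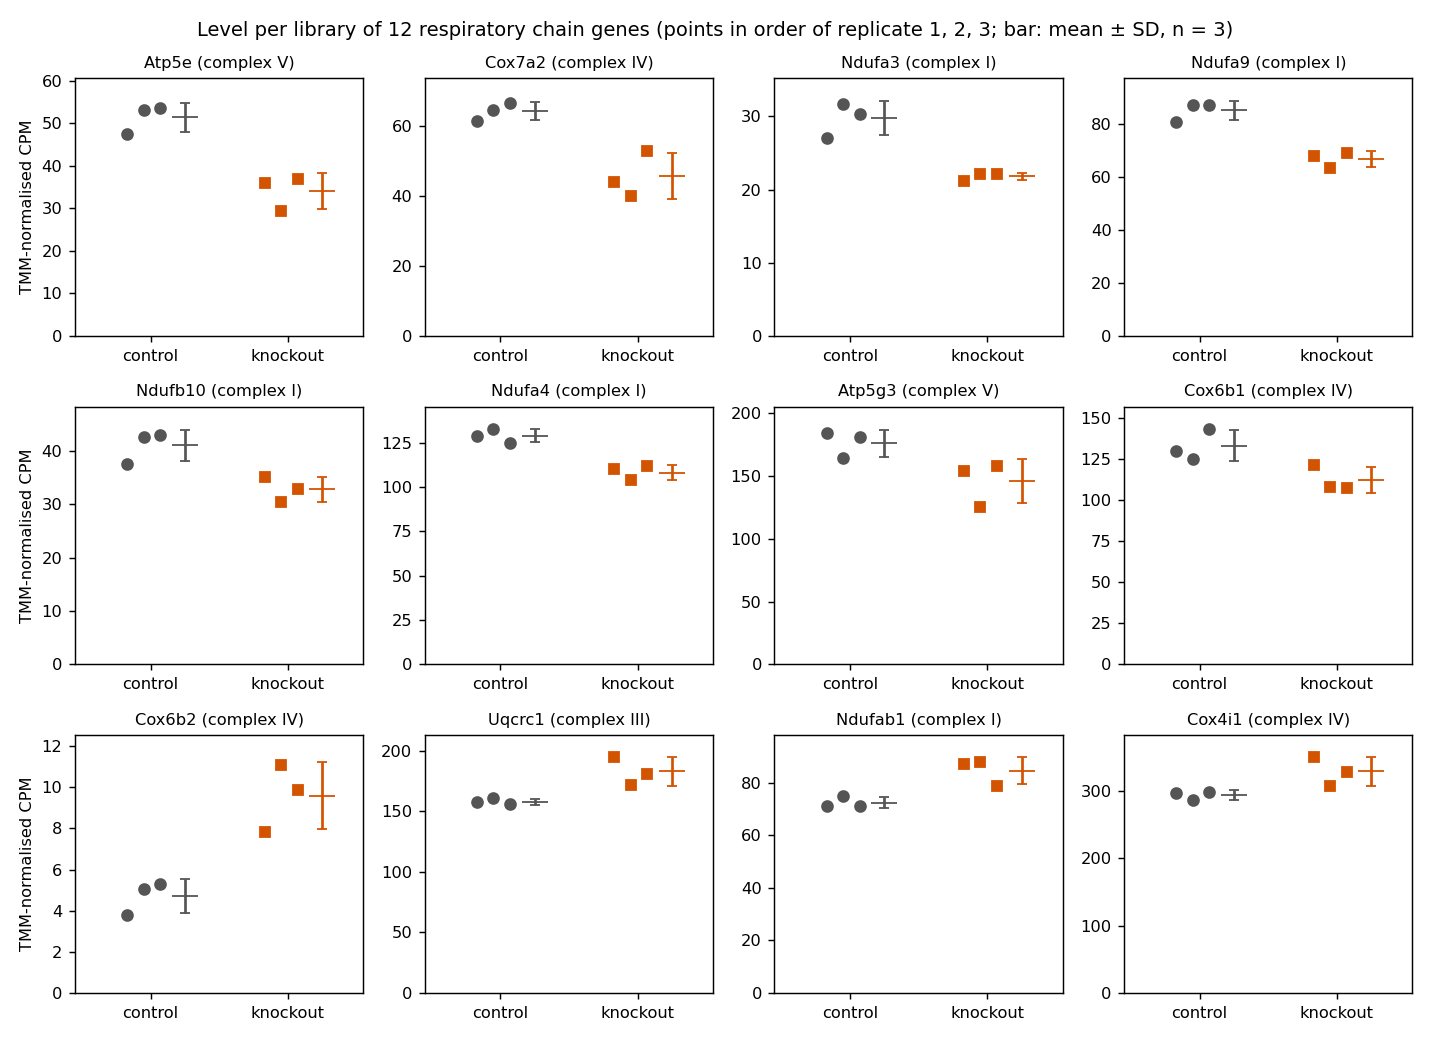
TMM-normalised CPM (vertical axes, each from 0) is plotted for 12 genes in 3 control libraries (circles) and 3 knockout libraries (squares), in order of replicate 1 to 3, with the mean and SD beside them. In each panel the 2 groups are apart, downward for the first 8 genes from Atp5e to Cox6b1 and upward for Cox6b2, Uqcrc1, Ndufab1 and Cox4i1. All 12 are called genes whose groups did not overlap, so the separation follows from the choice of genes. The called genes Ndufa1, Ndufa6 and Cox5a, whose groups overlapped, are not shown. Among all tested genes 46.7% had groups that did not overlap.

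In complex II, succinate dehydrogenase, 1 of 4 genes fell and none rose, and the median was -0.04. Sdha, the flavoprotein that oxidises succinate, had 194, 207 and 214 CPM in the controls and 181, 185 and 185 CPM in the knockout. The groups did not overlap, and the log2 fold change was -0.16 (SE 0.0516, adjusted p = 0.0148). The call was lost without control 2 (adjusted p = 0.0675) or control 3 (0.0785). Sdhb, the iron-sulphur subunit, and the membrane anchors Sdhd and Sdhc had log2 fold changes of -0.02, -0.06 and 0.08, with 95% intervals of -0.16 to 0.12, -0.20 to 0.08 and -0.06 to 0.22.

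Complex III, the cytochrome bc1 complex, had 1 gene of 9 higher, none lower and 8 not passing. Uqcrc1 (ENSMUSG00000025651, chromosome 9, 108936633 to 108949623, plus strand, mm10), core protein 1 on the matrix side, had 158, 161 and 156 CPM in the controls and 195, 172 and 181 CPM in the knockout. Each knockout library exceeded each control, and the log2 fold change was 0.20 (SE 0.0545, adjusted p = 0.00346). Uqcrc2, its partner core protein, stood at a log2 fold change of 0.06 (adjusted p = 0.427). The subunits with redox centres did not pass either. Cyc1, cytochrome c1, had 87.6, 88.3 and 94.7 CPM in the controls and 86.4, 71.9 and 85.6 CPM in the knockout (-0.15, adjusted p = 0.0927), and Uqcrfs1, the Rieske iron-sulphur protein, 89.4 ± 4.74 and 96.7 ± 2.58 CPM (0.11, adjusted p = 0.171). The first lay lower and the second higher in the knockout without overlap, both within 1.25-fold.

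Complex IV, cytochrome c oxidase, had 3 of 12 tested genes higher, 3 lower and 6 not passing. Cox6b2 rose most, and Cox7a2 fell most. The other 7 rows of the complex were below the count filter.

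Cox7a2 (ENSMUSG00000032330, chromosome 9, 79755361 to 79759878, minus strand, mm10) encodes the widely expressed form of subunit 7a. It had 61.5, 64.6 and 66.5 CPM in the controls and 44.0, 40 and 52.9 CPM in the knockout. The groups were apart, and the mean went from 64.2 ± 2.51 to 45.7 ± 6.60 CPM (log2 fold change -0.49, SE 0.0825, adjusted p = 1.73e-05). Cox7a1, the heart and muscle form, had 9, 1 and 5 counts in the controls and 8, 4 and 6 counts in the knockout. Its share of the summed TPM of both forms was 2.53% ± 1.96 in the controls and 4.17% ± 1.70 in the knockout and did not differ beyond the spread (two-sided exact permutation p = 0.4). Cox7a2l, a related factor that joins complexes III and IV into supercomplexes, stood at a log2 fold change of 0.10 (adjusted p = 0.224).

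Cox6b1 encodes the general form of subunit 6b and Cox6b2 the form known from testis. Cox6b1 (ENSMUSG00000036751) had 130, 125 and 143 CPM in the controls and 121, 108 and 107 CPM in the knockout, a log2 fold change of -0.24 (SE 0.0627, adjusted p = 0.00261). Cox6b2 (ENSMUSG00000051811, chromosome 7, 4751792 to 4753094, minus strand, mm10) had 3.77, 5.05 and 5.30 CPM in the controls and 7.85, 11.1 and 9.85 CPM in the knockout, a log2 fold change of 1.04 (SE 0.195, adjusted p = 7.89e-05). Neither gene's groups overlapped, and the rise of Cox6b2 came to 2.06-fold from a low level. Of the summed TPM of the pair, Cox6b2 made up 4.34%, 5.05% and 4.95% in control libraries and 8.21%, 12.8% and 11.1% in knockout libraries. The share was 5.94 percentage points higher in the knockout, with all 3 libraries above all controls (two-sided exact permutation p = 0.1, the smallest possible with 3 against 3). Markers of striated muscle and brown fat, tissues of several other second isoforms, also differed: the sum of 5 was 22.6 to 28.7 CPM in the controls and 73.7 to 85.6 CPM in the knockout. Acta1, skeletal muscle actin, made up most of it at 25.4 ± 3.18 and 78.3 ± 6.42 CPM, while the muscle myosin gene Myh7 was at 0, and the part of this in the isoform levels was not tested.

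The remaining second isoforms were at or near 0. Cox4i2, the form of subunit 4 known from lung, Cox7b2, Cox8b and Cox8c had 0 counts in all 6 libraries, as did Cox6c2, a processed pseudogene in the annotation. Cox6a2, the heart and muscle form of subunit 6a, had 2 counts in knockout 1, 1 in knockout 2 and 0 in the other 4 libraries. These rows entered no test.

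Cox4i1 and Cox5a encode subunits that join cytochrome c oxidase early in its assembly. Cox4i1 had 297, 286 and 299 CPM in the controls and 351, 308 and 328 CPM in the knockout, above the controls in each library (log2 fold change 0.16, SE 0.0501, adjusted p = 0.0114). Cox5a had 102, 107 and 104 CPM against 122, 104 and 126 CPM. Knockout 2 lay within the control range, and the adjusted p of 0.0496 was just under the threshold. Cox6c fell from 108 ± 5.84 to 94.2 ± 7.33 CPM (-0.20, adjusted p = 0.0174) without overlap. Leaving out libraries ended the call of Cox4i1 without control 2 (adjusted p = 0.0675), of Cox6c without control 3 (0.105) or knockout 2 (0.169), and of Cox5a without any library but knockout 2 (0.0685 to 0.262). Cox7c, the gene of the complex with the highest level, was at 180 ± 12.4 and 181 ± 19.2 CPM (95% interval of the log2 fold change -0.12 to 0.13). With the correction for GC content and length it was called higher (log2 fold change 0.15, adjusted p = 0.0321), as was Cox6a1 (0.12, adjusted p = 0.0497).

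**Figure D4:**
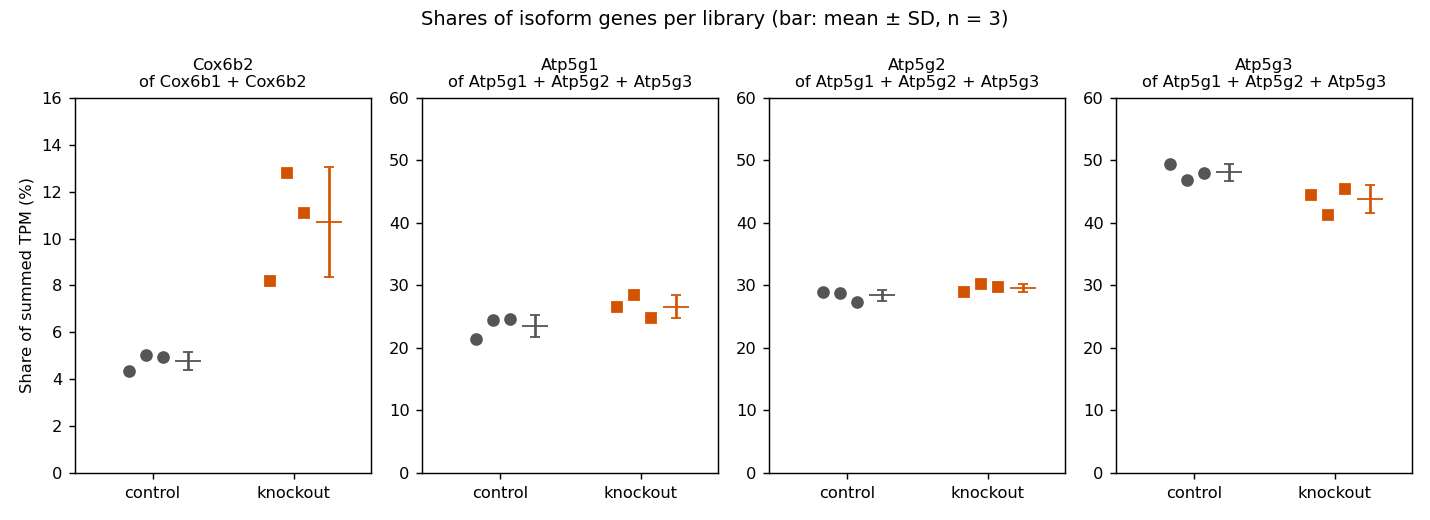
Shares of summed TPM in percent (vertical axes from 0) are given for Cox6b2 within its pair and for each of the 3 genes of the c subunit, per library, with mean and SD (n = 3) for control (circles) and knockout (squares). The Cox6b2 share lies at 4.34% to 5.05% in the controls and at 8.21% to 12.8% in the knockout, and all 3 knockout values of Atp5g3 lie below its control values.

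Complex V, ATP synthase, had 2 genes lower, 1 higher and 14 not passing of 17 tested. Atp5e (ENSMUSG00000016252, chromosome 2, 174461072 to 174464105, minus strand, mm10), the epsilon subunit of the central stalk, had 47.5, 53.2 and 53.5 CPM in the controls and 36.0, 29.3 and 37.0 CPM in the knockout. Each knockout library was below each control, and the mean fell from 51.4 ± 3.36 to 34.1 ± 4.17 CPM, a 1.51-fold change (log2 fold change -0.59, SE 0.0879, adjusted p = 2.54e-06). Atp5d, the delta subunit of the same stalk, had 146, 138 and 145 CPM against 166, 155 and 152 CPM. It rose by 0.14 on the log2 scale (adjusted p = 0.0395) without overlap. Its call was lost without control 1 (adjusted p = 0.065), control 2 (0.158) or knockout 1 (0.114). Atp5c1, the gamma subunit that completes the stalk, stood at -0.04 (adjusted p = 0.636). The hexamer subunits Atp5a1 and Atp5b had log2 fold changes of 0.02 and 0.09 (adjusted p of 0.713 and 0.0988), and with the correction for GC content and length Atp5b was called higher (0.09, adjusted p = 0.0217).

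Atp5g1, Atp5g2 and Atp5g3 encode the same mature c subunit of the membrane ring. Atp5g3 had 184, 164 and 181 CPM in the controls and 154, 125 and 158 CPM in the knockout, so that the groups were apart (log2 fold change -0.28, SE 0.0663, adjusted p = 0.00127). Atp5g1 and Atp5g2 did not pass, at -0.04 and -0.08 (adjusted p of 0.72 and 0.309). As a share of their summed TPM, Atp5g3 went from 48.1 ± 1.32% in the controls to 43.8 ± 2.21% in the knockout and Atp5g1 from 23.5 ± 1.70% to 26.6 ± 1.80% (two-sided exact permutation p = 0.1 for each, the smallest possible). On CPM in place of TPM the Atp5g1 shares overlapped (exact permutation p = 0.3). Counts of Atp5g2 were fractional in 5 libraries, which leaves its share uncertain.

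The deposited counts and TPM gave nearly the same change for most subunits and differed by more than 0.2 on the log2 scale for 3. Ndufc1, a small accessory subunit, had a log2 fold change of -0.16 on counts (adjusted p = 0.30) and of 0.49 on log2(TPM + 1) (limma, adjusted p = 0.0714). Ndufab1 stood at 0.22 and 0.52, and Sdhc at 0.08 and 0.32 (adjusted p of 0.417 and 0.0457). For Ndufc1, 1 TPM corresponded to 1.32, 1.74 and 1.73 counts in the controls and to 0.824, 0.91 and 1.31 counts in the knockout. For Ndufab1 it was 5.30, 6.33 and 5.24 counts against 3.62, 4.52 and 5.78, and for Cox4i1, as a comparison, a mean of 2.81 against 2.82. The direction for Ndufc1 therefore depended on the table, and its groups overlapped in CPM.

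**Figure D5:**
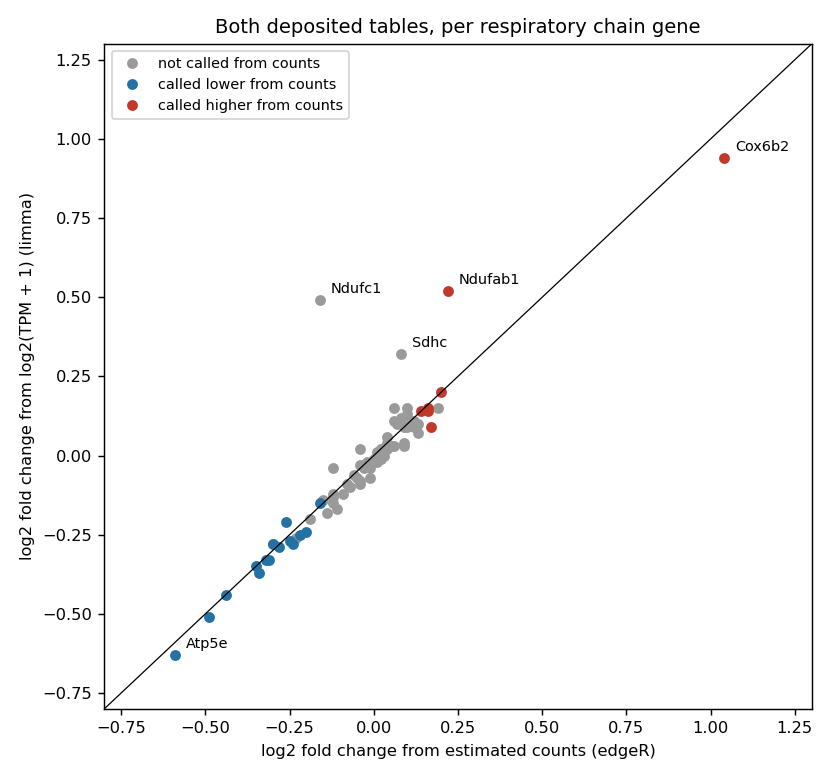
Each point is a tested subunit gene, with its log2 fold change from estimated counts (edgeR) on the horizontal axis and from log2(TPM + 1) (limma) on the vertical axis; the line marks equal values and colours the calls from counts. Most genes lie along the line, and Ndufc1 (-0.16 against 0.49), Ndufab1 (0.22 against 0.52) and Sdhc (0.08 against 0.32) lie above it.

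Reads shared with other genes limit some values. Of the tested subunits 22 have a near-identical copy, of which Cox6c and Ndufab1 were called, and their copies held at most 3 counts. Ndufb4c, a pseudogene whose sequence is 100% identical to the coding part of Ndufb4, held 767.1 counts beside 1571.9 for Ndufb4, and Gm15920 held 108.2 beside 3279.8 for Ndufa12. Ndufb4 and Ndufa12 had fractional counts in 6 of 6 libraries, which makes their values uncertain, and neither passed (adjusted p of 0.377 and 0.953). Exons of 21 tested subunits, 8 of them called, overlap those of a gene with at least 50 counts, mostly from the other strand, and the strand setting of the counting is not stated in the labels used here. Such overlaps were 616 bases for Ndufb5 with Mrpl47, 269 for Ndufab1 with Gm44986, 250 for Cox6c with Vps13b, 154 for Cox4i1 with Emc8, 146 for Ndufb2 with Braf, 68 for Atp5d with Cbarp, 66 for Ndufa2 with Tmco6 and 4 for Ndufa3 with Tfpt. Tmco6 itself was lower in the knockout (log2 fold change -0.62, adjusted p = 0.0125), and Cbarp stood at 0.12 (adjusted p = 0.236), beside 0.14 for Atp5d. Atp5e, Cox7a2, Cox6b1, Cox6b2, Uqcrc1, Atp5g3 and Ndufa4 had no exon overlap. Exons of Atp5j, the coupling factor 6 gene, share 397 bases with Gabpa, and neither gene passed (-0.12 and -0.01).

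The 13 subunits encoded by mitochondrial DNA were read beside their nuclear partners, with 0 higher, 2 lower and 11 not passing and a median of -0.11. The 2 that fell were mt-Co2 and mt-Atp6 (-2.00 and -0.71), and the counts of both were fractional in all 6 libraries, which makes them uncertain. The same holds for mt-Nd3, mt-Nd4, mt-Nd4l, mt-Co1 and mt-Co3, which did not pass. For mt-Co3 the counts were 1169.09, 0.08 and 1786.92 in knockout 1, 2 and 3. The median of this list is therefore uncertain as well. Among 48 tested assembly factors, 8 fell, 0 rose and 40 did not pass, and the median was -0.15. Cox15, which makes the heme of cytochrome c oxidase, had 43.3, 45.4 and 42.3 CPM in the controls and 34.8, 34.6 and 36.0 CPM in the knockout (-0.31, adjusted p = 0.00237). Ndufaf7 and Ndufaf1, both assembly factors of complex I, fell by 0.54 and 0.37 on the log2 scale (adjusted p of 0.00458 and 0.00569). Bcs1l, the translocator that inserts the Rieske protein into complex III, fell from 7.96 ± 0.364 to 4.93 ± 1.32 CPM (adjusted p = 0.00736). On log2(TPM + 1) the calls of Cox15 (0.105), Ndufaf1 (0.058) and Bcs1l (0.099) were lost. So was that of Ndufaf1 without control 1 (0.0516) and that of Bcs1l without knockout 3 (0.0707). Of all tested genes 18.3% were called lower, and the 2 of 13 and the 8 of 48 are to be read against that share.

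Regulators of these genes gave 3 lower, 0 higher and 13 not passing of 16 tested, with a median of 0.02. The counts of this list and of those below are to be read beside 18.3% of all tested genes called lower and 18.3% called higher. Ppargc1a, the coactivator of mitochondrial biogenesis, had 3.39, 5.44 and 4.20 CPM in the controls and 3.37, 2.54 and 1.55 CPM in the knockout, a low level in both groups. Knockout 1 was just below the lowest control (log2 fold change -0.82, SE 0.29, adjusted p = 0.0261). On log2(TPM + 1) the change was -0.29 (limma, adjusted p = 0.40), and the call was also lost without control 2 (0.174), control 3 (0.0534) or knockout 3 (0.162). Tfb1m, a mitochondrial ribosomal RNA methyltransferase, and Gabpb2, a beta subunit of GABP, fell by 0.64 and 0.21 on the log2 scale (adjusted p of 0.0326 and 0.0282). Both lost the call on log2(TPM + 1) (0.0677 and 0.323). Tfb1m lost it without any library but knockout 1 (0.0556 to 0.108), and Gabpb2 without control 1, control 2, knockout 1 or knockout 3 (0.0657 to 0.14). DESeq2 called none of the 3 (adjusted p of 0.0605 for Ppargc1a, 0.0758 for Tfb1m and 0.0724 for Gabpb2). Gabpa, the DNA-binding subunit of GABP, stood at 68.1 ± 5.18 and 67.8 ± 1.76 CPM, and Nrf1 at 29.4 ± 1.21 and 29.8 ± 1.52 CPM (adjusted p of 0.95 and 0.854). Among 8 factors that bind GGAA sites, Elf3 and its relatives Ehf and Elf1 fell and Elf4, Ets2 and Ets1 rose, with log2 fold changes of -2.84, -1.15, -0.29, 0.81, 0.26 and 0.15 in that order. The calls of Elf1 and Ets1 were lost on log2(TPM + 1) (0.0541 and 0.134), and that of Ets1 without control 1, control 2 or knockout 3 (0.059 to 0.12). Of 10 tested electron carriers and related enzymes, Gpd2 and Etfa, which feed electrons to ubiquinone from glycerol 3-phosphate and from fatty acid oxidation, fell (-0.24 and -0.20), and both lost the call on log2(TPM + 1) (0.232 and 0.161). Gpd2 also lost it without control 1 or knockout 1 (0.171 and 0.112), and Etfa without control 1, knockout 2 or knockout 3 (0.0537 to 0.243). The other 8 did not pass, among them Cycs, cytochrome c, at 151 ± 8.69 and 165 ± 3.87 CPM (adjusted p = 0.0664).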

How the data were processed

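Per the labels' protocols, RNA of primary tubular cells was enriched for mRNA before library preparation. The authors deposited a table of estimated counts per gene, not normalised, of which 93.3% of nonzero values were whole within 1e-06, and a table of TPM. featureCounts, Salmon and mm10 are named, without roles, in the submitters' processing notes; the annotation and strand setting are not stated in them. The counts were rounded, filtered with filterByExpr (13755 of 55487 genes kept), scaled by TMM and tested two-sided with edgeR 4.0.16 (quasi-likelihood, R 4.3.3) and adjusted by Benjamini-Hochberg over all tested genes at 0.05. CPM are TMM-normalised. The biological coefficient of variation was 5.35%. Intervals and floors cover counting error only, apart from the 95% intervals of fold changes, which come from the model. Some items are not reported here. Members and lists were chosen with earlier results of these data known.

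Named genes were Elf3 and, per complex, up to 8 called members in each direction by smallest p, the member with the highest mean TPM, isoform pairs, members below the filter and the 3 largest gaps between counts and TPM, and up to 4 called genes per related list; other genes were named after their values were seen. Tested on simulated data for 13755 genes, the share of changed genes that edgeR recovered was 36% at 1.25-fold, 68% at 1.5-fold, 84% at 2-fold and 96% at 4-fold, with 7 false calls. The simulation changed fewer genes than the data did and placed the changes among all tested genes, so the rates need not hold here or for the subunits. Libraries within groups differed beyond sampling noise (chi-square per degree of freedom 2.03 to 3.67). Deviations of libraries with the same replicate number correlated at 0.00251 to 0.00734, so the numbers were not taken as pairs.

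Alternatives were RLE factors, library totals, DESeq2 1.42.0, limma-voom (limma 3.58.1), other count filters, limma on log2(TPM + 1) or log2(TPM + 0.1) for genes of 0.5 TPM or more on average, the former also unfiltered, a replicate block, an adjusted p under 0.01, leaving out each library, and a GC and length offset chosen after seeing the data. Copies were found with blastn 2.17.0 among GENCODE M21 transcripts at 95% identity over 80% of the coding sequence, and positions are GENCODE M21 on mm10. Promoters are RefSeq windows on GRCm38.p6, with 69 of 86 symbols matched.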

Additional observations from a re-analysis of the deposited data

How the results depend on the processing

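The median log2 fold change of the subunits lay between -0.076 and 0.037 when libraries were left out, so its sign depended on the libraries used. Called higher, against 7 in the report, were 4 subunits with library totals, 3 on log2(TPM + 1) and 3 on log2(TPM + 0.1), 2 on log2(TPM + 1) without a filter, 3 at an adjusted p under 0.01 and 19 with the GC and length offset. Called lower, against 15, were 8, 8 and 6 on the same TPM settings and 9 at an adjusted p under 0.01. On TPM, 2712, 2716 and 2175 of all genes were called in place of 5028, and at an adjusted p under 0.01 the number was 3621. Leaving out 1 library gave 3 to 7 subunits higher, 8 to 20 lower and 4228 to 5009 genes in all. With 20 of 22 calls shared, the GC and length offset mostly added calls, and 9 of 22 were shared with log2(TPM + 1). The cause of these differences was not tested. A replicate block gave 5146 genes, 7 subunits higher and 15 lower, and the replicate numbers do not pair the libraries. Of the 22 called subunits followed through 18 alternatives, 8 passed in all of them (Ndufa9, Ndufa3, Ndufa4, Ndufb10, Uqcrc1, Cox6b2, Cox7a2 and Atp5e), and none changed direction. On the 3 TPM settings 13 were lost (Ndufab1, Ndufa10, Ndufa2, Ndufb5, Ndufa1, Ndufa6, Ndufb2, Sdha, Cox4i1, Cox5a, Cox6c, Atp5d and Atp5g3). Calls were also lost with library totals (Ndufa10, Cox5a and Atp5d), DESeq2 (Ndufa1, Ndufa6, Ndufb2 and Cox5a), limma-voom (Cox5a), no count filter (Ndufb2 and Atp5d) and the GC and length offset (Ndufa1 and Ndufb2), and Cox6b1 was lost on log2(TPM + 1) without a filter (adjusted p = 0.0514). In simulated counts edgeR recovered 36% of 1.25-fold changes, placed at random among all tested genes. The median standard error was 0.071 over the subunits and 0.0987 over all genes, so this rate need not hold for the subunits. Subunits that did not pass are not shown to be equal.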
